A study of Homo sapiens with 9 samples.

Results

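Kinesins are ATP-driven motor proteins that move along microtubules or act on their ends. The genes described here are those whose symbol is KIF followed by a digit, or KIFC1, KIFC2 or KIFC3. Every probe set annotated to exactly 1 such gene was taken, which gave 85 of the 54675 probe sets on the array and 41 of 19775 genes. KIFAP3 and KIFBP, which bind kinesins but are not motors, and 4 antisense RNAs with KIF names were left out. The mean signal over all arrays passed a filter on low values for 64 of the 85 probe sets. Through these, 35 of the 41 genes were tested. The 6 other genes, KIF2B, KIF7, KIF19, KIF21B, KIF24 and KIF27, had mean signals of 8.78 to 30.5, below the filter at 38.95. Of these, KIF2B, KIF7 and KIF24 enter the counts of promoter motifs below. The 6 genes enter no count of calls except those made without a filter. Without a filter the differences of their probe sets at 1.0 µM ran from −0.58 (KIF24) to 0.59 (KIF27) on the log2 scale.

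The cells were PANC-1, an established human pancreatic adenocarcinoma line. TVB-3166, which the series title places as an inhibitor of fatty acid synthase, the enzyme that makes palmitate, was given for 72 hours at 0.1 or 1.0 µM in medium with charcoal-filtered serum, and the control cells received the solvent DMSO alone in the same medium. Each of the 3 groups has 3 Affymetrix HG-U133 Plus 2.0 arrays. The labels do not state whether these came from separate cultures, and the p-values therefore measure only the spread between samples, which may be technical. Titles decided the groups, since other label fields contradict them: all samples with 1.0 µM in the title have 0.1 µM as their treatment, 1 sample titled 0.1 µM (replicate 1) is described as DMSO, and the DMSO concentration appears as both 0.05% and 0.5%.

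The deposited values are MAS5 signals, which are linear hybridisation intensities scaled so that the trimmed mean of each array was 500.1. Arrays of a group correlated at 0.981 to 0.990 across all tested genes, with 1 probe set for each gene, on the log2 scale. All 8 markers listed for the PANC-1 tumour cells, which include the mesenchymal marker VIM beside epithelial genes, passed the filter. Their summed signals were 73504 to 101211 in DMSO, 65742 to 95409 at 0.1 µM and 56982 to 82507 at 1.0 µM. Of the markers of other cell types, 1 of 4 immune (CD3E), 1 of 4 endothelial (PECAM1) and 1 of 5 acinar and islet genes (CELA3A) passed it. The 3 prostate markers on the array all passed it, with summed signals of 1657 to 1765 in DMSO, 1067 to 1306 at 0.1 µM and 935 to 1005 at 1.0 µM. Of these TMPRSS2 had means of 1171, 748 and 437 in the 3 groups and KLK3 of 471, 409 and 472. The sums of the 8 tumour cell markers in DMSO and 1.0 µM overlapped. In limma 2 of these 8 were lower and 1 higher at 1.0 µM at adjusted p under 0.05, against 11.0% and 12.3% of all genes. The mean signal of KRT8 was 19993 in DMSO and 10861 at 1.0 µM (adjusted p = 0.00165). That of KRT19 was 20399 and 10954 (adjusted p = 0.00258). KRT7 rose 2.09-fold (adjusted p = 4.29e-05), and VIM differed by 0.01 ± 0.22 on the log2 scale. At 0.1 µM CDH1 was lower (adjusted p = 0.0145) and KRT7 higher (adjusted p = 7.52e-05). The part of these markers in the results below was not tested. By the signal of their hybridisation spikes 4 arrays stood above the other 5. These were 1.0 µM replicate 2, DMSO replicate 2 and, at 0.1 µM, replicates 1 and 3, and no label names this split, here called the higher and the lower spike set, as a batch.

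A kinesin has a motor domain that binds the microtubule and hydrolyses ATP, and a tail that binds cargo, chromosomes or another microtubule. One class of family members builds and positions the mitotic spindle, moves chromosomes and completes the cut between daughter cells, and most of these genes are transcribed mainly in late cell cycle phases. The other classes carry vesicles, organelles and RNA along microtubules, act in cilia, or regulate microtubule growth, and many of them are best known from neurons. Many genes of the late cell cycle have in their promoters a cell cycle homology region (CHR), the site bound by the DREAM and MuvB complexes, often with a CCAAT box, the site of the factor NF-Y, upstream of it.

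The promoters of 7 mitotic kinesins are shown because the genes described next differ in these short elements and the microarray measures only the RNA. Each line is the 150 bases before the annotated start from RefSeq on GRCh38.p14, 5′ to 3′ on the gene's own strand, in lower case with matches to the CHR or to CCAAT on either strand in capitals. KIF11, KIF4A, KIF23, KIF18A and KIF15 each have a CHR in this stretch, KIF20A has CCAAT boxes only, and KIF2A has neither. The stretches lie at chr10:92592980-92593129 (KIF11, plus strand), chrX:70289954-70290103 (KIF4A, plus strand), chr15:69414199-69414348 (KIF23, plus strand), chr11:28108157-28108306 (KIF18A, minus strand), chr3:44761644-44761793 (KIF15, plus strand), chr5:138178962-138179111 (KIF20A, plus strand) and chr5:62306056-62306205 (KIF2A, plus strand).
KIF11: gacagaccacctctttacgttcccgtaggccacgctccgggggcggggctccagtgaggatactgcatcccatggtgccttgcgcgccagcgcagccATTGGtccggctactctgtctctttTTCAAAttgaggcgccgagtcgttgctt
KIF4A: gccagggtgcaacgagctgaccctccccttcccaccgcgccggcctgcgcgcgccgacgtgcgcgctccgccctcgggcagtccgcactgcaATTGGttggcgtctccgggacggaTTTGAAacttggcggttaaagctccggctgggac
KIF23: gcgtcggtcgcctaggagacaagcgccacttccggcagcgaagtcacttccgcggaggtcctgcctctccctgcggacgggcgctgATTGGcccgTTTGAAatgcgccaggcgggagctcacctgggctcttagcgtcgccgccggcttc
KIF18A: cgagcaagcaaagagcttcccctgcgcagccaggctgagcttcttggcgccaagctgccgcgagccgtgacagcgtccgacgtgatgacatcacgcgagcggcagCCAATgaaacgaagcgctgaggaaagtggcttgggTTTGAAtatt
KIF15: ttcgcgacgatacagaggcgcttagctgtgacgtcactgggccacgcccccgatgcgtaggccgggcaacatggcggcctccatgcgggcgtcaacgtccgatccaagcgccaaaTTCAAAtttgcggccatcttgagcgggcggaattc
KIF20A: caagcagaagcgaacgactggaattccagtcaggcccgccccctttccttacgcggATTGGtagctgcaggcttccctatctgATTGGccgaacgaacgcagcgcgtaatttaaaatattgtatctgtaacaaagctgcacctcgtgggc
KIF2A: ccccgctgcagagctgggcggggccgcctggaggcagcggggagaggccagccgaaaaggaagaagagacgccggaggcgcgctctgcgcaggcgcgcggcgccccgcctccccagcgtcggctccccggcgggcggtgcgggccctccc

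In the KIF11 promoter the CCAAT match began 53 bases before the start and the CHR match 28 bases before it. The same order and a like distance were found in KIF4A, with the CCAAT match at 58 and the CHR match at 34 bases before the start. In KIF18A the matches began at 45 and 10 bases before the start, and in KIF23 at 64 and 55. KIF15 had a CHR match at 35 bases before the start and no CCAAT match, and KIF20A had CCAAT matches at 94 and 67 bases and no CHR match.

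Windows of 300 bases, 250 before to 50 after each start, were listed for 33 of the 41 kinesin genes. The motifs were searched on both strands. They were the CHR in the spelling TTTGAA and in its known variant spelling TTCGAA, the box CCAAT itself, and an E2F-type element in any of 4 spellings, which were TTTCCCGC, TTTCGCGC, TTTGCCGC and TTTGGCGC. No match in a kinesin window overlapped another. The CHR letters occurred in 10 of 14 mitotic kinesins (71.4%), in 2 of 19 other kinesins (10.5%) and in 17.5% of all protein-coding genes. In KIF14, KIF18B and KIFC1 the CHR match lay after the start, beginning at positions 2, 3 and 5, and in KIF20B at 25 and 31. In the other mitotic kinesins with these letters the CHR match began before the start. CCAAT occurred in 10 of the 14 mitotic kinesins (71.4%), in 7 of the 19 others (36.8%) and in 42.1% of protein-coding genes. The E2F-type letters occurred in 1 of 14 and 1 of 19, against 5.40% of protein-coding genes. Of the 12 mitotic kinesins that were lower at 1.0 µM, 10 had the CHR letters, and the 2 without them were KIF20A and KIF2C. KIF2A, which was not called at either dose, had none of the 3 motifs in its window. A match of these letters is a description of the sequence and says nothing of binding in these cells.

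**Figure D1:**
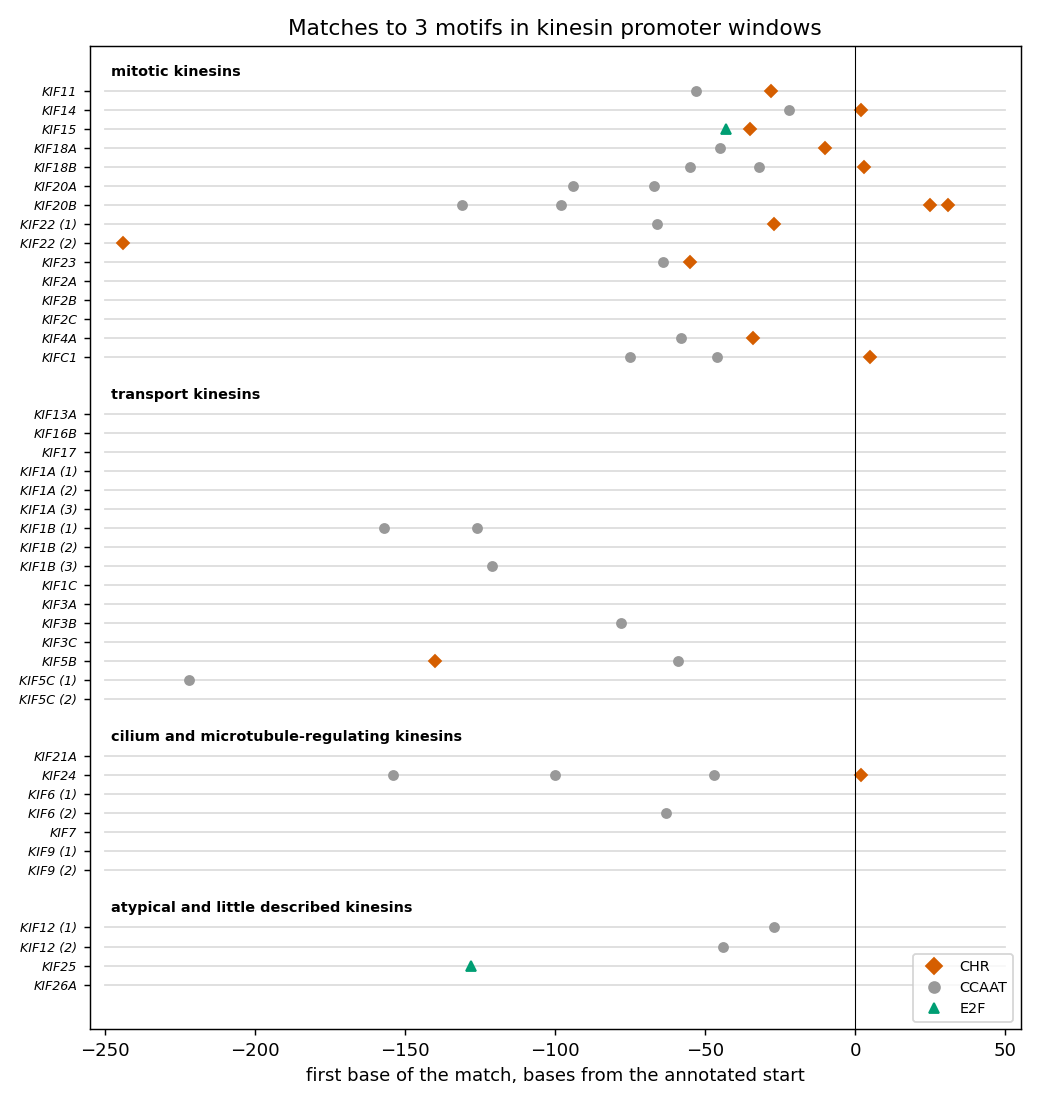
Positions of matches to the CHR, CCAAT and E2F-type motifs in the 42 promoter windows of 33 kinesin genes, as the first base of each match in bases from the annotated start (0 on the axis, vertical line), with genes in rows by role and a number in brackets where a gene has several starts. CHR matches lie near the start in most mitotic kinesins, while among the other kinesins KIF5B and KIF24 have the letters.

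Mitotic kinesins were lower after TVB-3166. At 1.0 µM, 12 of the 13 tested fell, none rose, and KIF2A was not called, where 11.0% of all 13948 tested genes were called lower. The median log2 change of the 13 was −0.99 with a range of −1.35 to 0.03, against 0.01 for all genes. At 0.1 µM 11 of 13 fell, none rose, and KIF2A and KIF20B were not called, where 5.11% of all genes were called lower, and the median change was −0.76. Both comparisons share the DMSO arrays. A change here is the difference of mean log2(signal + 16) with its limma standard error (n = 3 arrays per group), and a call is an adjusted p under 0.05 from limma with Benjamini-Hochberg adjustment over all tested genes. In these bulk samples fewer cells in mitosis and less of these RNAs per cell cannot be told apart.

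The plot of mitotic kinesins by array shows how closely the treated arrays sat together. The median of the 13 genes against their DMSO means was −0.83, −0.66 and −0.80 on the arrays of 0.1 µM and −0.95, −0.99 and −0.95 on those of 1.0 µM, while the DMSO arrays themselves lay at 0.10, −0.02 and −0.07. Each of the 12 genes that fell at 1.0 µM was below its DMSO mean on all 6 treated arrays. For these 12 genes all 3 arrays of 1.0 µM lay below all 3 of DMSO, an arrangement seen for 18.0% of all genes. At 0.1 µM the arrays were apart in the same way for 12 genes, against 14.6% of all genes. Within the lower spike set alone the median change at 1.0 µM was −0.96, and within the higher set, where DMSO and 1.0 µM have 1 array each, it was −0.94.

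**Figure D2:**
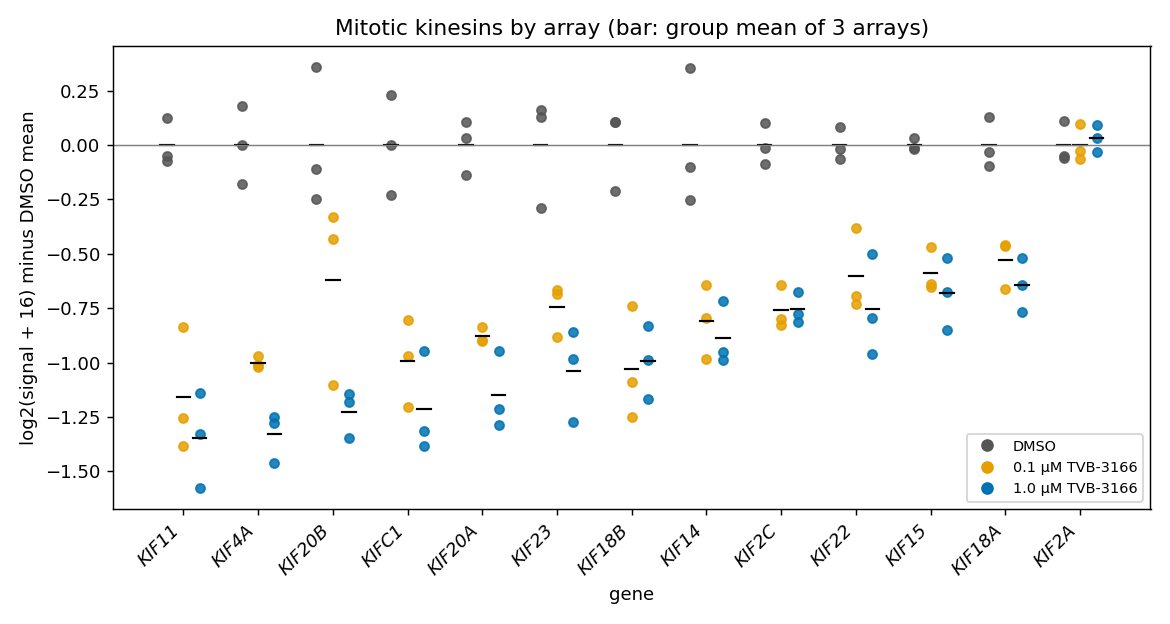
Each point is 1 array's log2(signal + 16) of a mitotic kinesin minus the DMSO mean of that gene, for DMSO (grey), 0.1 µM (orange) and 1.0 µM TVB-3166 (blue), and each bar is the mean of 3 arrays. All treated arrays lie below the DMSO arrays for every gene but KIF2A, whose 9 arrays overlap.

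KIF11 and KIF15 push the spindle poles apart. KIF11 (Eg5, Entrez gene 3832, on chromosome 10) is a tetramer that slides antiparallel microtubules and is needed for a spindle with separate poles. Its signal was 1321.5, 1171.7 and 1150.4 in DMSO, 455.5, 672.5 and 498.9 at 0.1 µM, and 541.7, 396.1 and 473.3 at 1.0 µM. Every treated array was well under the lowest DMSO array, and the arrays of the 2 doses overlapped each other. KIF11 fell 2.54-fold at 1.0 µM (log2 −1.35 ± 0.15, adjusted p = 6.22e-05) and 2.23-fold at 0.1 µM (−1.16 ± 0.15, adjusted p = 0.00042). KIF15, which can take over part of the work of KIF11, fell by 0.68 ± 0.15 at 1.0 µM (adjusted p = 0.00519) and by 0.59 ± 0.15 at 0.1 µM (adjusted p = 0.0215) on the log2 scale. At 0.1 µM the adjusted p of KIF15 was 0.0527 to 0.0893 when DMSO replicate 1, DMSO replicate 2, 0.1 µM replicate 1 or 0.1 µM replicate 3 was left out.

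KIFC1 (HSET), a motor that walks towards microtubule minus ends, pulls the poles together and focuses them. Its signal was 907.3, 771.2 and 656.3 in DMSO, 435.2, 386 and 326.2 at 0.1 µM, and 286.5, 392.9 and 301.3 at 1.0 µM. The treated arrays of both doses lay under all DMSO arrays, and the doses overlapped. KIFC1 fell 2.32-fold at 1.0 µM (−1.21 ± 0.16, adjusted p = 0.000208) and 1.99-fold at 0.1 µM (−0.99 ± 0.16, adjusted p = 0.00181). The outward-pushing KIF11 and the inward-pulling KIFC1 were thus both lower at each dose.

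KIF4A and KIF22 are chromokinesins, which bind chromosome arms. KIF4A (Entrez gene 24137, on chromosome X) also limits the length of the microtubules of the midzone, the overlap region between separating chromosomes. Its signal was 1868.1, 2119.1 and 1646.1 in DMSO, 946, 913.2 and 920.2 at 0.1 µM, and 760.2, 776.1 and 668.8 at 1.0 µM. The 3 groups did not overlap, with 1.0 µM the lowest. KIF4A fell 2.51-fold at 1.0 µM (−1.33 ± 0.11, adjusted p = 4.77e-06) and 2.00-fold at 0.1 µM (−0.999 ± 0.11, adjusted p = 9.39e-05). KIF22 (Kid), which pushes chromosome arms away from the poles, had signals of 678.5, 727.3 and 655.5 in DMSO, 407.1, 523.7 and 418.7 at 0.1 µM, and 388.6, 481.1 and 344.7 at 1.0 µM. All treated arrays of KIF22 were below DMSO, and the doses overlapped. It fell by 0.75 ± 0.14 at 1.0 µM (adjusted p = 0.00242) and by 0.60 ± 0.14 at 0.1 µM (adjusted p = 0.0173). The call of KIF22 at 0.1 µM was lost without DMSO replicate 1, DMSO replicate 2, 0.1 µM replicate 1 or 0.1 µM replicate 3 (adjusted p = 0.0501 to 0.0822).

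The motors of the midzone and of cytokinesis, the division of the cell body, were all lower at 1.0 µM. KIF23 (MKLP1) is the motor of centralspindlin, the complex that bundles midzone microtubules. Its signal was 1414.4, 1383.8 and 1032.4 in DMSO, 679.6, 792.1 and 781.3 at 0.1 µM, and 631.6, 514.1 and 689.5 at 1.0 µM. DMSO replicate 3 was the lowest of its group and still above every treated array. KIF23 fell 2.05-fold at 1.0 µM (−1.04 ± 0.14, adjusted p = 0.000273) and 1.67-fold at 0.1 µM (−0.74 ± 0.14, adjusted p = 0.00548). KIF20A (MKLP2), which carries the chromosomal passenger complex to the midzone, had signals of 1032.9, 1086.9 and 916.3 in DMSO, 533.2, 535 and 559 at 0.1 µM, and 426, 404.1 and 515.4 at 1.0 µM. The 3 groups of KIF20A did not overlap. It fell 2.22-fold at 1.0 µM (−1.15 ± 0.12, adjusted p = 2.53e-05) and 1.84-fold at 0.1 µM (−0.88 ± 0.12, adjusted p = 0.000429), and its promoter window lacks the CHR letters.

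KIF14, which works with citron kinase in the last step of cytokinesis, had signals of 761.5, 684.7 and 1051.3 in DMSO, 406.7, 464.6 and 518.4 at 0.1 µM, and 415.2, 405.4 and 492.2 at 1.0 µM. DMSO replicate 3 stood highest, and the other DMSO arrays also exceeded all treated ones. KIF14 fell by 0.88 ± 0.16 at 1.0 µM (adjusted p = 0.0018) and by 0.81 ± 0.16 at 0.1 µM (adjusted p = 0.0063). KIF20B (MPP1), which acts at the midbody, fell by 1.22 ± 0.21 at 1.0 µM (adjusted p = 0.00113). At 0.1 µM its change was −0.62 ± 0.21 (adjusted p = 0.0757), with signals of 516.4, 481.7 and 296.6, so that 1 array lay near the level of 1.0 µM and 2 did not. The KIF20B call at 1.0 µM rests on its brightest probe set, and with the mean of its probe sets the change was −0.32 (adjusted p = 0.473).

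The kinesins that shorten microtubules or hold chromosomes in line at the metaphase plate were split. KIF2C (MCAK), a kinesin-13 that removes tubulin from microtubule ends and corrects faulty attachments, had signals of 1438.9, 1328.1 and 1260.9 in DMSO, 749.5, 852.8 and 763.6 at 0.1 µM, and 834.1, 757.1 and 776.1 at 1.0 µM. Its treated arrays lay in 1 narrow band below DMSO. It fell by 0.75 ± 0.10 at 1.0 µM (adjusted p = 0.000159) and by 0.76 ± 0.10 at 0.1 µM (adjusted p = 0.000338), and its promoter window has none of the 3 motifs. KIF2A, another kinesin-13, which also acts in interphase cells and neurons, had signals of 2708.5, 2406.3 and 2426.3 in DMSO, 2402, 2680.7 and 2459.7 at 0.1 µM, and 2679.9, 2453.5 and 2566.5 at 1.0 µM. All 3 groups of KIF2A overlapped. Its change was 0.03 ± 0.09 at 1.0 µM (95% confidence interval −0.16 to 0.22, adjusted p = 0.853) and 0.00 ± 0.09 at 0.1 µM (−0.19 to 0.19, adjusted p = 0.997).

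KIF18B, which limits the length of astral microtubules, had signals of 897.2, 718.5 and 897.3 in DMSO, 383.1, 492 and 341.1 at 0.1 µM, and 460.6, 362.8 and 412.9 at 1.0 µM. All treated arrays were below DMSO, and the doses overlapped. KIF18B fell 1.99-fold at 1.0 µM (−0.99 ± 0.15, adjusted p = 0.000607) and 2.04-fold at 0.1 µM (−1.03 ± 0.15, adjusted p = 0.000956). KIF18A, which damps chromosome movements at the metaphase plate, fell by 0.64 ± 0.13 at 1.0 µM (adjusted p = 0.00367) and by 0.53 ± 0.13 at 0.1 µM (adjusted p = 0.0206). At 0.1 µM the KIF18A call was lost without DMSO replicate 1, 0.1 µM replicate 2 or 0.1 µM replicate 3 (adjusted p = 0.0567 to 0.0848).

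**Figure D3:**
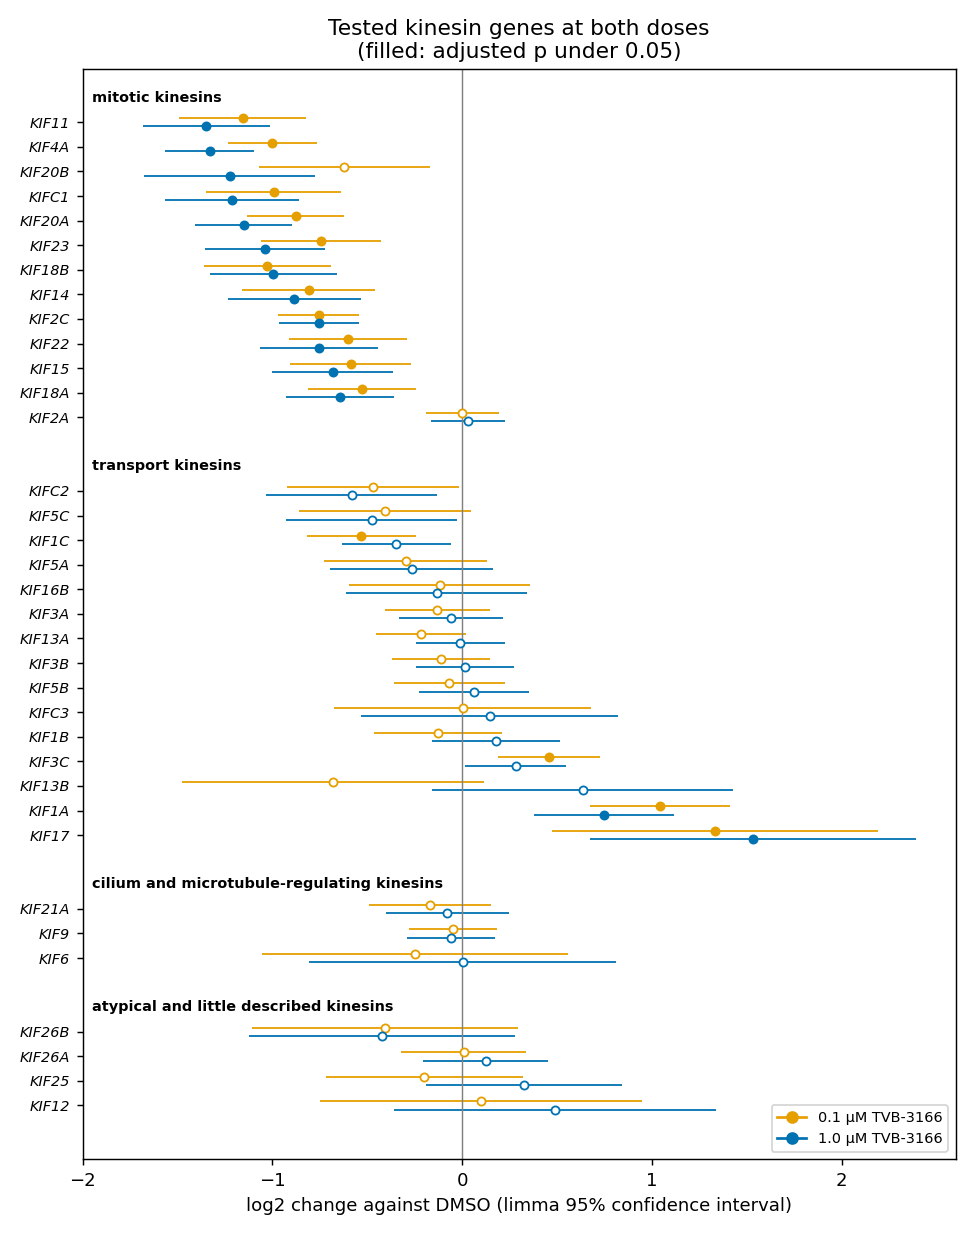
Log2 change against DMSO of the 35 tested kinesin genes with the 95% confidence interval from limma, for 0.1 µM (orange) and 1.0 µM TVB-3166 (blue), with filled points for an adjusted p under 0.05 and n = 3 arrays per group. The mitotic genes lie left of 0 except KIF2A, and the other kinesins lie on both sides of 0 with few filled points.

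Outside mitosis few kinesins were called. Of 22 tested, 2 rose and none fell at 1.0 µM, where 12.3% of all genes were called higher, 11.0% lower and 23.2% either way, so the share called was not above that of all genes. The 2 were KIF1A and KIF17. KIF17 had a DMSO mean under the filter level and was tested only because of its treated arrays. Its place in the counts at either dose is therefore no support for a rise. At unadjusted p under 0.05, 3 of the 22 were lower and 3 higher, where 2329 of all 13948 genes were lower and 2511 higher. At 0.1 µM 3 rose (KIF1A, KIF17 and KIF3C) and 1 fell (KIF1C), where 6.89% of all genes were called higher and 5.11% lower. The median change of the 22 was 0.01 at 1.0 µM and −0.13 at 0.1 µM. All of these called genes are cargo motors, a class with 15 tested members.

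KIF1A (Entrez gene 547, on chromosome 2), the kinesin-3 that carries synaptic vesicle precursors and dense core vesicles in neurons, was higher at both doses. Its signal was 516.9, 444 and 633.6 in DMSO, 1116.9, 950 and 1262.9 at 0.1 µM, and 830.4, 1132.4 and 763.5 at 1.0 µM. Every treated array exceeded every DMSO array, and the doses overlapped. Of all genes, 19.2% had every 1.0 µM array above every DMSO array, and 15.5% had this at 0.1 µM. KIF1A rose 2.06-fold at 0.1 µM (1.05 ± 0.17, adjusted p = 0.00163) and 1.68-fold at 1.0 µM (0.75 ± 0.17, adjusted p = 0.00706). Its other probe set above the filter also rose at 1.0 µM, by 0.67 ± 0.13 (adjusted p = 0.00401 among all probe sets). Within the lower spike set alone the change at 1.0 µM was 0.47 (adjusted p = 0.0616), and the 1 array of 1.0 µM in the higher set exceeded the 1 DMSO array there by 1.32.

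KIF17 (Entrez gene 57576, on chromosome 1), a kinesin-2 of dendrites and cilia, had low signals of 8.2, 50 and 44.2 in DMSO, 90.7, 79.3 and 134.8 at 0.1 µM, and 88.5, 185.4 and 94.9 at 1.0 µM. All treated arrays were above DMSO, but the DMSO mean of 34.1 is under the filter level of 38.95, so the gene was tested only because of the treated arrays. KIF17 rose by 1.53 ± 0.39 at 1.0 µM (adjusted p = 0.0145) and by 1.33 ± 0.39 at 0.1 µM (adjusted p = 0.0473). Without 1.0 µM replicate 2 the change at 1.0 µM was 1.23 (adjusted p = 0.0507). At 0.1 µM the call was lost in most alternatives, for instance without DMSO replicate 1 (adjusted p = 0.145) and without 0.1 µM replicate 3 (adjusted p = 0.19).

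KIF3C, a subunit of a heteromeric kinesin-2, had signals of 1264.5, 1391.3 and 1237 in DMSO, 1915.4, 1476.8 and 2016.4 at 0.1 µM, and 1514.3, 1754.3 and 1484.3 at 1.0 µM. All treated arrays lay above DMSO, with 0.1 µM replicate 2 the closest to it. KIF3C rose by 0.46 ± 0.12 at 0.1 µM (adjusted p = 0.0301), and at 1.0 µM the difference was 0.28 ± 0.12 (adjusted p = 0.122). The call at 0.1 µM was lost without DMSO replicate 1, DMSO replicate 3, 0.1 µM replicate 1 or 0.1 µM replicate 3 (adjusted p = 0.0857 to 0.148). It was also lost with the mean of its probe sets (0.28, adjusted p = 0.139). KIF3C's other probe set above the filter differed by 0.11 ± 0.15 at 0.1 µM (adjusted p = 0.743 among all probe sets).

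KIF1C, a fast motor that carries vesicles and mRNA to the cell edge, had signals of 510.5, 484 and 529.3 in DMSO, 336.1, 399.8 and 309.5 at 0.1 µM, and 357.3, 392.8 and 441.1 at 1.0 µM. The treated arrays were all below DMSO. KIF1C fell by 0.53 ± 0.13 at 0.1 µM (adjusted p = 0.0209), and at 1.0 µM the difference was −0.35 ± 0.13 (adjusted p = 0.0778). Leaving out DMSO replicate 1, DMSO replicate 3, 0.1 µM replicate 1 or 0.1 µM replicate 3 ended the call at 0.1 µM (adjusted p = 0.0593 to 0.104), and so did the mean of its probe sets (adjusted p = 0.235).

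**Figure D4:**
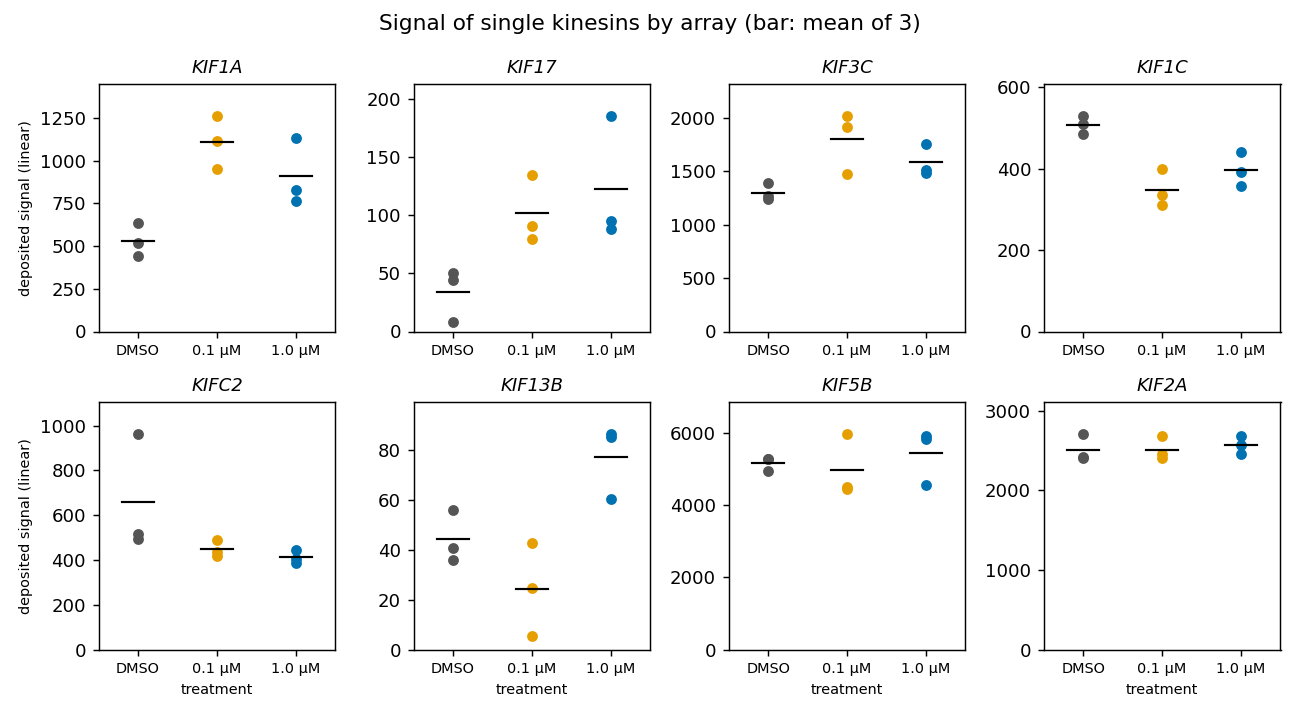
Deposited signal on a linear axis from 0 for 8 single kinesins in DMSO (grey), 0.1 µM (orange) and 1.0 µM TVB-3166 (blue), with 1 point per array and a bar at the mean of 3. KIF1A and KIF17 are higher on all treated arrays, KIF5B and KIF2A overlap between groups, and 1 DMSO array of KIFC2 stands at 961.9.

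The general transport motors gave no call. KIF5B, the kinesin-1 heavy chain of most tissues, which moves mitochondria and vesicles, had signals of 5296.1, 4939.6 and 5287.8 in DMSO, 4456.6, 5975.2 and 4512.1 at 0.1 µM, and 5836.5, 4564.2 and 5930.4 at 1.0 µM. The groups overlapped, and the change was 0.06 ± 0.13 at 1.0 µM (95% confidence interval −0.23 to 0.36). The neuronal kinesin-1 chains KIF5A and KIF5C differed from DMSO by −0.27 and −0.48 at 1.0 µM and were not called (adjusted p = 0.386 and 0.123).

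KIF3B, which with KIF3A forms the kinesin-2 motor of cilia, had signals of 3368.8, 2930.6 and 3835.5 in DMSO, 2844.7, 3500.3 and 3018.1 at 0.1 µM, and 3342.7, 3169.9 and 3686 at 1.0 µM. Its groups overlapped, with a change of 0.01 ± 0.12 at 1.0 µM (95% confidence interval −0.24 to 0.27). KIF3A differed by −0.06 at 1.0 µM (adjusted p = 0.807).

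KIF13A, a kinesin-3 that moves recycling endosomes, had signals of 3856.7, 3369.1 and 4157.8 in DMSO, 3071.2, 3649.4 and 3075.9 at 0.1 µM, and 3699.8, 3539.4 and 4052.8 at 1.0 µM. The arrays of 1.0 µM lay within the DMSO range, and the change was −0.01 ± 0.11 (95% confidence interval −0.25 to 0.23). KIF1B, a carrier of mitochondria and synaptic vesicle precursors, had signals of 2486.5, 2031.1 and 2061.3 in DMSO, 1925.9, 2160.5 and 1911.1 at 0.1 µM, and 2755.5, 1860.9 and 2951.2 at 1.0 µM. At 1.0 µM replicate 2 was below all DMSO arrays and the other 2 were above them. Its change was 0.18 ± 0.15 there, and without replicate 2 it was 0.38 (adjusted p = 0.0269).

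KIFC2 and KIF13B were singled out after their values were seen. KIFC2, a minus-end-directed motor described in neurons, had signals of 515.8, 492.9 and 961.9 in DMSO, 488.5, 436.2 and 420 at 0.1 µM, and 445.6, 405.8 and 388.8 at 1.0 µM. One DMSO array stood far above the others, and the difference at 1.0 µM of −0.58 ± 0.21 was not called (adjusted p = 0.0622). The difference passed the threshold without DMSO replicate 1 (−0.72, adjusted p = 0.046) and without DMSO replicate 2 (−0.75, adjusted p = 0.033), which both keep the high DMSO array. Without that array, DMSO replicate 3, it did not pass. With the mean of its probe sets the difference passed (−0.55, adjusted p = 0.0153). KIFC2's other probe set was called lower at 1.0 µM, by 0.52 ± 0.13 (adjusted p = 0.0168 among all probe sets).

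KIF13B, a kinesin-3 that transports signalling proteins, had low signals of 40.6, 36.1 and 55.8 in DMSO, 5.4, 24.9 and 42.9 at 0.1 µM, and 60.3, 85.4 and 86.4 at 1.0 µM. The 0.1 µM arrays overlapped DMSO and the 1.0 µM arrays were above all others. Arrays of 1.0 µM lay above all those of 0.1 µM for 9.73% of all genes. Neither dose was called against DMSO (−0.68 ± 0.36, adjusted p = 0.277 at 0.1 µM and 0.63 ± 0.36, adjusted p = 0.25 at 1.0 µM), and the doses differed by 1.31 ± 0.36 (adjusted p = 0.138).

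Of the kinesins of cilia and microtubule regulation, 3 of 8 were bright enough to test and none was called in limma, nor had any an unadjusted p under 0.05 at either dose. KIF21A, which halts microtubule growth at the cell cortex, had signals of 1532.8, 1383.8 and 1344.5 in DMSO, 1062.7, 1461 and 1287.9 at 0.1 µM, and 1519.6, 1070.3 and 1490.6 at 1.0 µM. The groups overlapped, with a change of −0.08 ± 0.15 at 1.0 µM (95% confidence interval −0.40 to 0.24). KIF9 and KIF6, motors of motile cilia, changed by −0.06 and 0.00 at 1.0 µM (adjusted p = 0.769 and 0.996). The 4 atypical or little described members, KIF12, KIF25, KIF26A and KIF26B, were not called at either dose either and had no unadjusted p under 0.05, with differences of −0.42 (KIF26B) to 0.49 (KIF12) at 1.0 µM. The remaining transport motors KIF16B and KIFC3 differed by −0.13 and 0.15 at 1.0 µM (adjusted p = 0.729 and 0.798).

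Between the doses no kinesin was called, where 0.817% of all genes were called in either direction. At unadjusted p under 0.05, 3 mitotic kinesins (KIF4A, KIF20A and KIF20B) were lower at 1.0 than at 0.1 µM, and KIF13B and KIF25 were higher. By that measure 865 of all 13948 genes were lower and 861 higher. The median difference between doses was −0.15 over the 13 mitotic genes, 0.12 over the 22 others and 0.01 over all genes. KIF4A differed by −0.33 ± 0.11 (adjusted p = 0.226), KIF20A by −0.27 ± 0.12 (adjusted p = 0.368) and KIF20B by −0.60 ± 0.21 (adjusted p = 0.254). For these 3 genes the arrays of the 2 doses did not overlap, an arrangement seen downward for 8.73% of all genes. KIF2C differed by 0.00 ± 0.10, with a 95% confidence interval of −0.21 to 0.21.

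Several probe sets of 1 gene were above the filter for 21 genes, and none of these genes was called in opposite directions by 2 of them. Of 19 mitotic probe sets 16 were called lower and none higher at 1.0 µM, where 8.68% of all probe sets were called lower. At 0.1 µM 13 were lower, where 3.66% of all probe sets were. The other probe set of KIF2C fell by 1.13 ± 0.12 at 1.0 µM and that of KIF23 by 1.17 ± 0.30, both past the threshold. The dim second probe set of KIF20B differed by 0.59 ± 0.48 and was not called. Of 45 probe sets of the other kinesins, 3 were called higher and 1 lower at 1.0 µM, where 8.94% of all probe sets were called higher. At 0.1 µM 3 were higher and 2 lower, where 4.59% of all probe sets were higher. KIF9 had probe sets at −0.79 ± 0.30 and 0.55 ± 0.47, neither of them called. Probe sets whose name ends in x_at can bind related transcripts, and those of KIF20B and KIF9 at 0.59 and −0.79 are of this kind. So are the probe sets that stand for KIF9 and KIF25, while the KIF9 probe set at 0.55 is not.

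**Figure D5:**
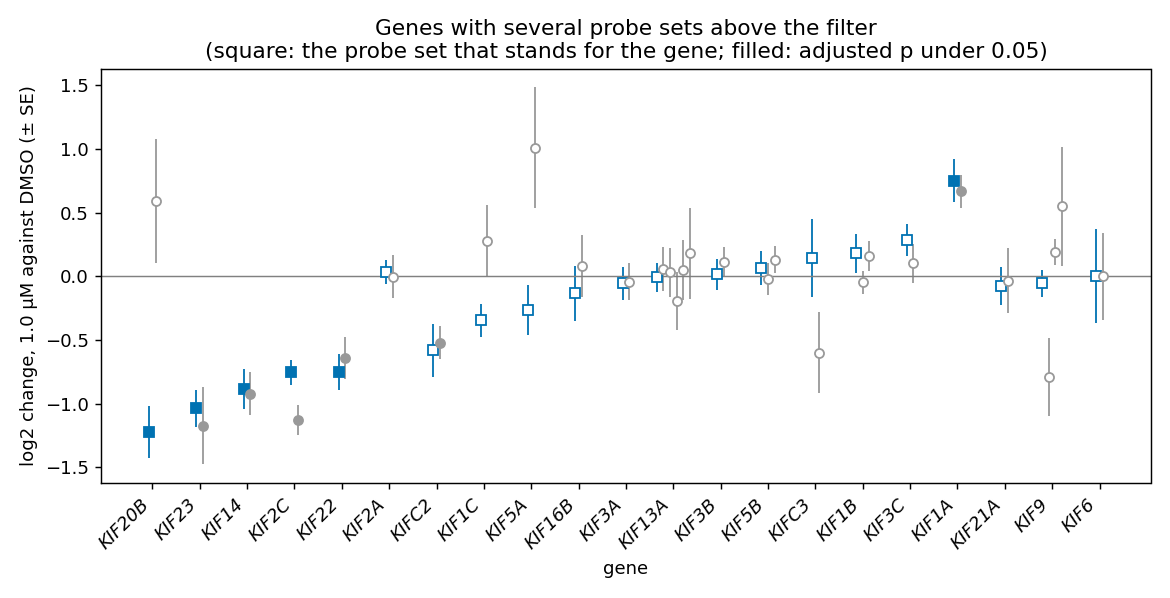
Log2 change at 1.0 µM against DMSO with its limma standard error for the 21 kinesin genes with several probe sets above the filter, where a blue square is the probe set that stands for the gene, grey circles are its others, and filled symbols have an adjusted p under 0.05 among all probe sets. Probe sets of the mitotic genes lie well below 0 except those of KIF2A, both close to 0, and the second one of KIF20B.

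The partners of the mitotic kinesins were lower as well. Of 15 tested genes of the spindle and midzone, 13 fell at 1.0 µM (11.0% of all genes) and 14 at 0.1 µM (5.11% of all genes), and none rose. The median change was −0.94 at 1.0 µM and −0.81 at 0.1 µM. PRC1, which crosslinks the midzone microtubules on which KIF4A works, had the smallest p and fell by 1.22 ± 0.09 (adjusted p = 2.25e-06). BIRC5 (survivin), a subunit of the passenger complex that KIF20A carries, fell by 1.43 ± 0.12 (adjusted p = 7.23e-06). TPX2, which recruits KIF11 to the spindle, fell by 0.93 ± 0.09 (adjusted p = 1.67e-05). CENPE, the kinetochore kinesin that the naming rule does not take in, fell by 1.11 ± 0.13 at 1.0 µM (adjusted p = 7.01e-05) and by 0.94 ± 0.13 at 0.1 µM (adjusted p = 0.000507). ECT2, the exchange factor that binds centralspindlin, was not called at either dose (−0.40 ± 0.18 at 1.0 µM, adjusted p = 0.123), and KNSTRN was not called at 1.0 µM.

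The light chains and cargo adaptors of the transport kinesins showed no common direction. Of 16 tested genes, 2 fell and 3 rose at 1.0 µM, where 11.0% of all genes were called lower and 12.3% higher, with a median of 0.06. At 0.1 µM 1 fell and none rose, where 5.11% of all genes were called lower and 6.89% higher. KIFBP, which binds motor domains and keeps them off microtubules, fell by 0.60 ± 0.08 at 1.0 µM (adjusted p = 0.000221) and by 0.42 ± 0.08 at 0.1 µM (adjusted p = 0.00543). FEZ2 rose by 0.39 ± 0.09 (adjusted p = 0.00893) and KLC2, a kinesin light chain, by 0.65 ± 0.16 (adjusted p = 0.012) at 1.0 µM. KIFAP3, the accessory subunit of the KIF3 motors, fell by 0.38 ± 0.11 at 1.0 µM (adjusted p = 0.0254), while KIF3A and KIF3B gave no call.

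Dynein is the motor that walks the other way from most kinesins along microtubules, and dynactin is its cofactor. Of 22 tested genes of these complexes and their regulators, 2 fell and 4 rose at 1.0 µM (11.0% and 12.3% of all genes), with a median change of −0.02. None was called at 0.1 µM (5.11% and 6.89% of all genes), where 2 were lower and 2 higher at unadjusted p under 0.05. By that measure 1690 of all 13948 genes were lower and 1854 higher at 0.1 µM. DYNC1LI1, a light intermediate chain that links dynein to its adaptors, rose by 0.60 ± 0.11 (adjusted p = 0.00196). PAFAH1B1 (LIS1), a dynein activator, fell by 0.34 ± 0.08 (adjusted p = 0.0101), and DYNLT3, a dynein light chain, rose by 0.43 ± 0.11 (adjusted p = 0.0158).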

How the data were processed

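PANC-1 RNA was measured on 9 arrays. The authors deposited a linear intensity for each probe set, MAS5 signals per the submitters' processing notes, in a version not given in the sources used here. Each array has the same trimmed mean (2% trimmed at each end), so groups are compared after a global scaling. Values were turned into log2(signal + 16), which shrinks printed folds against plain signal ratios, chiefly where signals are low. Gene names came from the platform annotation, updated to RefSeq on GRCh38.p14 by Entrez identifier (41037 of 41091 probe sets with 1 symbol). A filter at the 40th percentile of the mean level kept 32768 probe sets, and the one with the highest mean stood for each gene.

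The 3 groups were fitted together in limma 3.58.1 (lmFit, eBayes with trend, R 4.3.3), with 6 residual and 5.93 prior degrees of freedom. On data simulated for 1.0 µM against DMSO, 66% of genes changed by 1 on the log2 scale were recovered and 14% of those changed by 0.5. The number of arrays limits the precision. The members and gene lists were chosen with earlier results of these data known. Signals by array are printed for the 10 mitotic kinesins with the highest mean, the other kinesins called against DMSO and the next 5 others. Of each partner list the 3 genes with the smallest p at 1.0 µM are named, and CENPE, ECT2, KNSTRN and KIFAP3 were added after their values were seen. For each result 25 alternatives were run, or 24 for the 8 dimmer kinesins that a filter at the 60th percentile drops, KIF17 among them.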

Additional observations from a re-analysis of the deposited data

How the results depend on the processing

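Of the counts over kinesins, that of mitotic kinesins called at 1.0 µM against DMSO was the steadiest: it was 12 whichever array was left out and 10 to 12 under the other alternatives. The count of mitotic kinesins called at 0.1 µM was 11, was 8 to 11 with 1 array left out, and was 3 with only the lower spike set, which holds 1 array of 0.1 µM. For the other kinesins at 1.0 µM the count of 2 became 1 with a filter at the 60th percentile, 4 with array weights, 5 with the spike set as a block and 0 with only the lower spike set, and 2 to 3 with 1 array left out. At 0.1 µM their count of 4 became 2 with the mean of probe sets, eBayes without trend, only the higher spike set or a fold of at least 1.5, and 0 with only the lower spike set; it was 1 to 4 with 1 array left out. Between the doses array weights called 1 mitotic and 7 other kinesins where the reported fit called 0, and leaving out 1 array called 0 to 1 of the others (KIF1B, without 1.0 µM replicate 2). In those settings the cause was not tested, beyond the smaller number of arrays or genes that the setting itself brings.

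Same-numbered replicates did not deviate together (9 pairs, correlations −0.34 to 0.22), so the replicate number was not used as a pairing. With the replicate number as a block 12 mitotic and 2 other kinesins were called at 1.0 µM and 10 and 2 at 0.1 µM, and between the doses 0 of each.

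No called change of a kinesin turned its sign in the alternatives run for it. The uncalled difference of KIF20B at 0.1 µM went from −0.62 to 0.01 with the mean of its probe sets. Of the 14 kinesins called at 1.0 µM 9 kept the call in all alternatives run, and of the 15 called at 0.1 µM 3 did. KIF15 and KIF18A missed the threshold at 1.0 µM with only the higher spike set (−0.83 and −0.54, adjusted p = 0.0547 and 0.0997 in limma), where each arm is 1 array that is assumed to vary like those of 0.1 µM. With no filter, 14 mitotic and 27 other kinesins were tested and 12 and 2 of them called at 1.0 µM. KIF17 and KIF13B have signals close to the filter, which limits their precision.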
